A study of Homo sapiens with 4 samples.

Results

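The response to ESS2 knockdown that PC3 and DU145 cells had in common was described by comparing shESS2 with shC arrays inside each cell line and averaging the 2 differences. PC3 and DU145 are established human prostate cancer cell lines that grow without androgen. There were 4 conditions with 1 array each: PC3-shC, PC3-shESS2, DU145-shC and DU145-shESS2. The shC cells carried an shRNA against luciferase, which human cells lack, and the shESS2 cells an shRNA against ESS2. The series text describes delivery by lentivirus, whereas the methods describe a plasmid and puromycin selection for PC3, and no source used here gives the hairpin sequence or says whether both lines received the same hairpin. An effect of the hairpin itself and an effect of less ESS2 therefore cannot be told apart, and the labels do not say how many cultures each array stands for. A gene was included when its brightest probe was well above background on all 4 arrays, which held for 14684 of the 25122 gene symbols on the array. Genes were ranked by the smaller of their 2 changes, taken only where both changes had the same sign. A change is always the log2 difference of shESS2 minus shC after each array had been scaled to its 75th percentile.

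ESS2 encodes a nuclear protein found in the C complex of the spliceosome, the machinery of splicing, and it has also been described as a coregulator of transcription. Several gene programs that recur below have well-known regulators. NF-κB factors are held in the cytoplasm by IκB proteins, enter the nucleus after inflammatory signals, bind κB motifs in DNA and switch on chemokine genes together with NFKBIA, the gene of their own inhibitor IκBα. Type I interferon acts through STAT and IRF factors on interferon-stimulated genes, some of which IRF3 can also induce directly. SREBP2 switches on cholesterol synthesis and uptake when sterols in the endoplasmic reticulum run low, and INSIG1 restrains it.

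Between 50.8 and 52.6% of non-control spots were well above background on each array. Both arrays of a line lay on 1 slide, so the line and the slide cannot be told apart, but each slide held both arms and the slide cancels from each change. The epithelial genes KRT8, KRT18, KRT19, EPCAM and CDH1 were well above background on all 4 arrays, as was the prostate luminal gene KLK2, whereas KLK3 was on none. CTNNA1, which is lost by deletion in PC3, was well above background on the DU145 arrays and not on the PC3 arrays. Of markers of other cell types, 2 of 5 leukocyte genes, 2 of 3 endothelial genes and 1 of 5 fibroblast genes were well above background on all 4 arrays. CD3E, COL1A2, DCN and PDGFRA were so on no array, and LUM, a fibroblast gene, on 2 arrays with its highest signal, 48.8, on PC3-shESS2. PECAM1, an endothelial gene, was so on 2 arrays, with signals of 338 on PC3-shC and 16.4 on PC3-shESS2. PTPRC had a signal between 27.2 and 60 and COL1A1 between 75.4 and 265. CD14 had shC and shESS2 signals of 221 and 54.7 in PC3 and of 172 and 274 in DU145. The part of these genes in the results was not tested.

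ESS2 itself was lower with shESS2 in both lines. Its signal was 133 on the PC3-shC array and 53.6 on the PC3-shESS2 array, and 85.7 on the DU145-shC array and 17.3 on the DU145-shESS2 array. Both shESS2 arrays lay below both shC arrays, and ESS2 had rank 6 among the genes lower in both lines by its smaller change. The level was 2.74-fold lower in PC3 and 5.09-fold lower in DU145, with an average change of −1.90 ± 0.28 (SE, limma, 2 lines) and an adjusted p of 0.649. With normexp background correction the average change of ESS2 was −1.01. GAPDH differed by 0.18 in PC3 and 0.04 in DU145, and ACTB by 0.15 and −0.04. As RNA came from whole cultures, less RNA per cell and fewer cells that express a gene cannot be told apart.

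Stretches of promoter are shown first for some of the leading genes, chosen because they hold a match to the κB motif, which the ranking did not use and which 11 of 20 searched genes past 2-fold on the lower side held. A promoter is the stretch from 250 bases before to 50 bases after the start of a gene, from RefSeq on GRCh38.p14, and capitals mark a match to the κB motif on either strand. The genes shown are chemokine and cytokine genes with large shared differences, LCN2, the NF-κB inhibitor gene, a kinase gene of the same pathway and, as the exception that was higher with shESS2, IL6.
LTB (chr6:31582493-31582520, minus strand): ggggtgtgcGGAAAGTCCCagccaggtg
CCL20 (chr2:227813754-227813781, plus strand): gatcaatggGGAAAACCCCatgtggcaa
LCN2 (chr9:128149269-128149296, plus strand): agcactccgGGAATGTCCCtcactctcc
CXCL1 (chr4:73869305-73869332, plus strand): tggaactccGGGAATTTCCctggcccgg
CXCL2 (chr4:74099255-74099282, minus strand): tggagctccGGGAATTTCCctggcccgg
NFKBIA (chr14:35404812-35404839, minus strand): gactggcttGGAAATTCCCcgagcctga
MAP3K8 (chr10:30433983-30434010, plus strand): gggagacgcGGAATTTCCCagcgcgggg
IL6 (chr7:22727118-22727145, plus strand): atcaaatgtGGGATTTTCCcatgagtct
The windows of CXCL1 and CXCL2, neighbours in the chemokine cluster of chromosome 4, carry the same match, so they are not independent examples.

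Across all genes the 2 lines resembled each other only weakly. The same direction was found for 8411 genes (57.3%), with 3411 (23.2%) higher and 5000 (34.1%) lower in both lines, and 6273 (42.7%) differed in opposite directions. The correlation of the 2 changes across genes was 0.15 (Pearson) and 0.17 (Spearman), given as a description because genes are not independent replicates. The excess of lower genes depended on the scaling: with the authors' scaled values 4364 genes were higher and 4022 lower. The median change of all genes was −0.07 in PC3 and −0.03 in DU145, and scaling each array to its median moved that of PC3 by −0.10.

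Large changes in both lines were few and not always alike. In PC3 376 genes (2.56%) were more than 2-fold higher and 410 (2.79%) more than 2-fold lower, and in DU145 202 (1.38%) and 229 (1.56%). With more than 1.5-fold in both lines, 371 genes had the same direction and 182 opposite ones. With more than 2-fold the counts were 53 and 29 (0.197%), with more than 3-fold 13 and 10, and with more than 4-fold 8 and 0, so that the share in the same direction did not climb steadily with size. Of the 53 genes, 28 (0.191% of those tested) were higher and 25 (0.170%) lower with shESS2, against 41 and 21 with the authors' scaled values and 19 and 8 with normexp background correction. The 53 genes were spread over dim and bright genes: with all tested genes ordered by mean signal into 3 groups of like size, the low group held 8 higher and 8 lower genes, the middle group 11 and 8, and the high group 9 and 9. Every other probe that measured them on all 4 arrays, available for 8 of the higher and 3 of the lower genes, had the same sign in both lines.

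**Figure D1:**
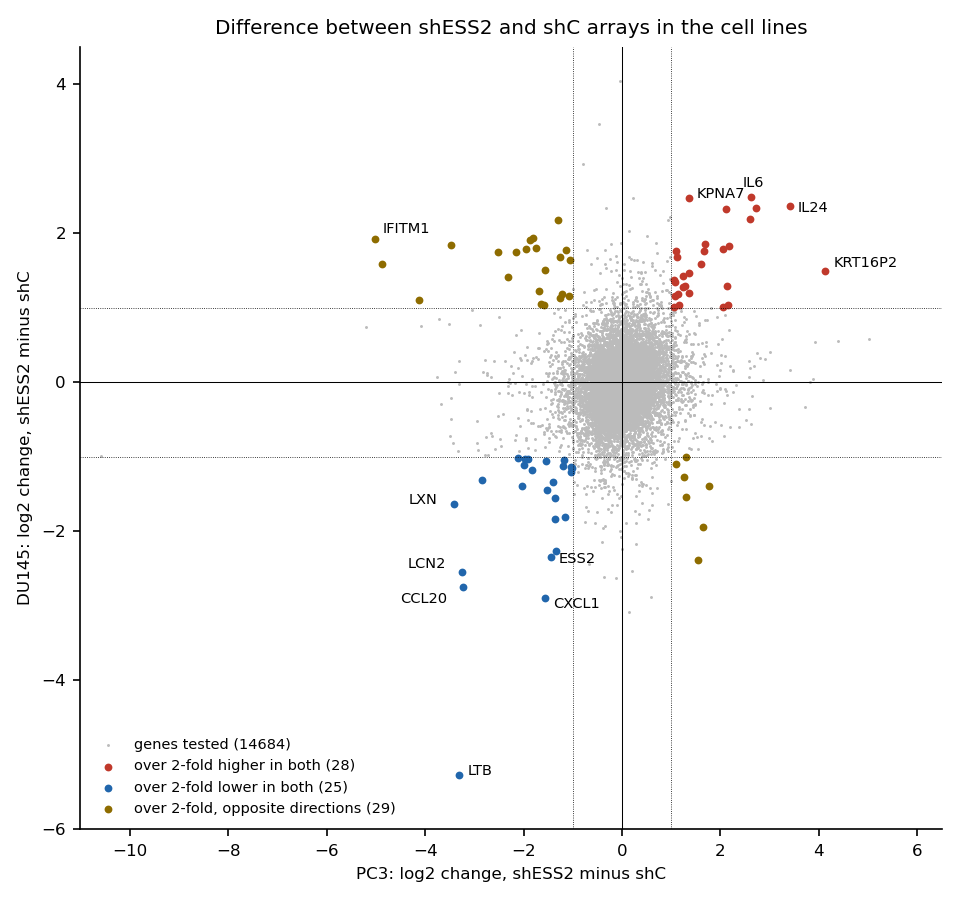
Each point is a gene, placed by its log2 change (shESS2 minus shC) in PC3 on the horizontal axis and in DU145 on the vertical axis, with dotted lines at 2-fold. The 28 red and 25 blue genes passed 2-fold in the same direction in both lines, and the 29 brown genes passed it in opposite directions.

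No gene passed the test across both lines. In limma with the cell line as a block, 0 genes (0.00%) were called higher and 0 (0.00%) lower at an adjusted p under 0.05, and the smallest adjusted p was 0.461. At an unadjusted p under 0.05 there were 499 higher (3.40%) and 624 lower genes (4.25%), and all 53 genes past 2-fold were among them. They were chosen by the same changes, so nothing is read from this. The fit had 1 residual degree of freedom, so limma borrowed much of the spread from all genes. For genes whose 2 changes were nearly equal, the SE is close to that common spread and not a measured variation of the gene. The differences below are thus values of 2 pairs of arrays. Between spots of the same probe the change had a median SD of 0.0465 in PC3 and 0.0527 in DU145 (280 probes with 10 spots), which covers neither the culture nor the hybridization.

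At the limit itself, NID2 (smaller change 1.01) lay just inside on the higher side, and MXD1 (0.99) and HLA-F-AS1, which missed the limit by less than the rounding used here, just outside. On the lower side CBX3P2 and HS3ST1, whose smaller changes were 1.02 and 1.01 in size, lay inside, and MSMP and CENPQ, at 0.99 each, outside. MSMP, a secreted protein of the microseminoprotein family, had very unequal changes of −10.58 in PC3 and −0.99 in DU145.

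**Figure D2:**
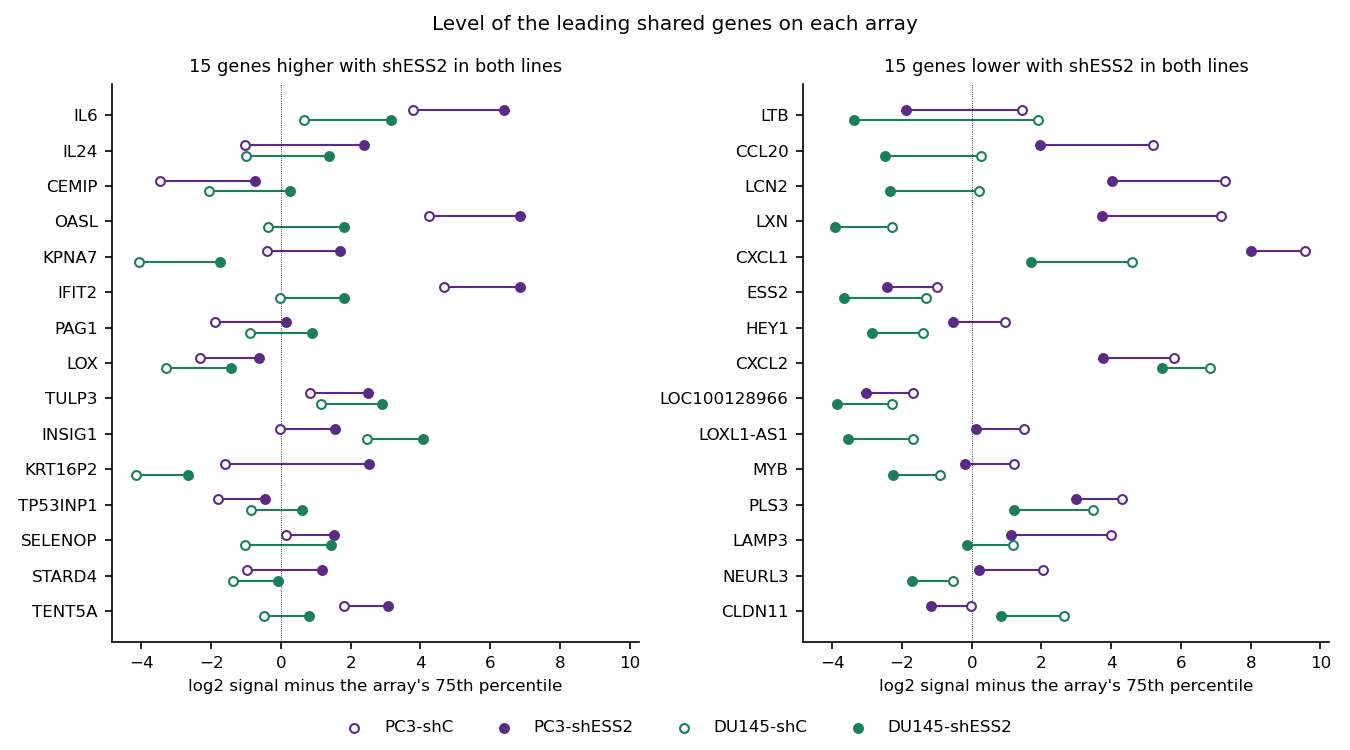
Level on each array of the 15 genes with the largest shared change in each direction, as log2 signal minus the 75th percentile of the array; open circles are shC arrays, filled circles shESS2 arrays, and a line joins the arrays of a cell line. The lines of a gene run the same way, while the starting level often differs between PC3 and DU145, as for IL6, LCN2 and LXN.

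Chemokines and other NF-κB targets led the genes that were lower. LTB, CCL20, CXCL1, CXCL2 and NFKBIA were more than 2-fold lower in both lines, as was LCN2. LTB encodes lymphotoxin β, a membrane-bound cytokine of the TNF family. Its signal was 714 on PC3-shC and 79.1 on PC3-shESS2, and 794 on DU145-shC and 21.1 on DU145-shESS2. Both shESS2 arrays lay far below both shC arrays, by 9.95-fold in PC3 and 38.7-fold in DU145, and the average change was −4.29 ± 0.50 (SE, limma, adjusted p = 0.649). CCL20, which attracts cells bearing CCR6, had signals of 9630 and 1130 in PC3 and of 255 and 39.1 in DU145. It was lower in each line, by 9.40-fold and 6.71-fold, although the PC3-shESS2 array remained above DU145-shC. Its average change was −2.99 ± 0.21 (SE, limma, adjusted p = 0.461).

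CXCL1 and CXCL2 encode neutrophil-attracting chemokines that bind CXCR2. CXCL1 had signals of 200000 and 74600 in PC3 and of 5130 and 708 in DU145. Those of CXCL2 were 14600 and 3960 in PC3 and 24400 and 9530 in DU145. CXCL2 was lower on both shESS2 arrays than on both shC arrays, whereas the groups overlapped for CXCL1, which was far brighter in PC3. The folds were 2.96 and 7.45 for CXCL1 and 4.07 and 2.63 for CXCL2, in PC3 and DU145. The second probe of each gene had the same sign in both lines. LCN2, which encodes lipocalin 2, an iron-scavenging protein secreted by epithelia during infection, had signals of 40400 and 4680 in PC3 and of 243 and 42.8 in DU145, and was lower in each line with groups that overlapped.

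Regulators of the NF-κB pathway were also among the 25 lower genes. NFKBIA had signals of 32762.5 and 15775 in PC3 and of 25512.5 and 12062.5 in DU145, with both shESS2 arrays below both shC arrays and an average change of −1.16 ± 0.17 (SE, limma, adjusted p = 0.649). IKBKE, an IκB kinase family member that also acts on interferon regulators, differed by −1.91 in PC3 and −1.03 in DU145. In DU145 it was dim, with signals of 21.4 and 10.8. MAP3K8, a kinase upstream of ERK in inflammatory signalling, differed by −1.98 and −1.03, and was dim in DU145 with signals of 31.7 and 16. Of the 32 measured genes in a list of NF-κB targets and pathway genes, 19 were lower and 2 higher in both lines, against 34.1% and 23.2% of all genes. The median change of the list was −0.39 in PC3 and −0.60 in DU145. The 11 members with opposite changes included TNFAIP3, an NF-κB inhibitor, at 1.55 in PC3 and −2.38 in DU145, and CXCL8, at 0.28 and −2.17, both named after their values were seen. The count of 2 higher genes was the same under the scalings and filters tried. Of the 32, 18 or 19 were lower under the scalings, while 25 of 40 were lower with a filter on 2 arrays and 26 of 41 with no filter on dim probes.

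IL6 was the exception in that list and stood first among the genes higher in both lines. IL6 encodes a cytokine that activates STAT3 through gp130. Its signal was 3600 on PC3-shC and 24400 on PC3-shESS2, and 336 on DU145-shC and 1930 on DU145-shESS2. The level was 6.15-fold and 5.59-fold higher with shESS2, and the groups overlapped because IL6 was brighter in PC3. The average change was 2.55 ± 0.18 (SE, limma, adjusted p = 0.461). In the paper, reverse transcription PCR showed IL6 to be unchanged in PC3-shESS2 cells. The reason for this disagreement was not tested. The other higher member of the list, TNIP2, an NF-κB inhibitor, was at 0.29 and 0.30. IL24, a cytokine of the IL10 family, had signals of 130 and 1520 in PC3 and of 107 and 568 in DU145, and both shESS2 arrays were above both shC arrays, by 10.6-fold and 5.16-fold. Among 29 secreted cytokines and receptors in all, 9 were higher and 10 lower in both lines, beside 23.2% and 34.1% of all genes. TNFSF9, the ligand of the costimulatory receptor CD137, was higher at 1.73 and 0.83, and IL32 lower at −0.54 and −1.89.

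The κB motif was found in the promoters of 11 of the 20 genes that were more than 2-fold lower in both lines and had a listed promoter (55.0%). It was found in 3 of 20 of those more than 2-fold higher, namely IL6, CD24 and TULP3, and in 12.9% of the 11483 tested genes with a promoter and 10.8% of all 27305 promoters. The 11 genes were LTB, CCL20, CXCL1, CXCL2, NFKBIA, LCN2, MAP3K8, NEURL3, OAS3, LOXL1-AS1 and PSMB8-AS1. Only the first 5 belong to the NF-κB list, and of the 15 lower genes outside the list 6 (40.0%) had a match. Among genes more than 1.5-fold lower in both lines (203 genes, 1.38% of those tested) the share was 24.2%, and among those more than 1.5-fold higher (168 genes, 1.14%) it was 11.7%. These shares used the first listed start of each gene. With any listed start they were 55.0% for the lower and 25.0% for the higher genes past 2-fold, against 16.9% of tested genes. A match is a string of letters and was not tested for binding.

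Interferon-related genes were divided, with OASL and IFIT2 higher and OAS3 lower in both lines. OASL, an OAS family member without the enzymatic activity of its relatives, had signals of 5020 and 33600 in PC3 and of 164 and 770 in DU145. IFIT2, which restrains viral translation, had signals of 6760 and 33600 in PC3 and of 208 and 760 in DU145. Both genes were much brighter in PC3, so that the groups overlapped, yet the folds were alike between lines, 6.07 and 4.57 for OASL and 4.51 and 3.55 for IFIT2. The average change of OASL was 2.40 ± 0.20 (SE, limma, adjusted p = 0.461). IFI44 lay just under the 2-fold limit in DU145, with changes of 1.05 and 0.95. In the other direction OAS3, which makes the activator of RNase L, had signals of 2730 and 760 in PC3 and of 97.9 and 46.7 in DU145.

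Of the 40 measured members of the interferon list 8 were higher, 18 lower and 14 opposite, beside 23.2%, 34.1% and 42.7% of all genes, with a median change of −1.17 in PC3 and 0.02 in DU145. MX1, an antiviral GTPase, differed by −3.32 in PC3 and by −0.93 in DU145, and PARP14 by −1.23 and −0.65. Of 20 MHC class I pathway genes, 12 were lower and 2 higher in both lines, against 34.1% and 23.2% of all genes, with a median change of −0.43 in PC3 and −0.12 in DU145. PSMB9, a subunit of the immunoproteasome, had signals of 1650 and 806 in PC3 and of 873 and 437 in DU145, with both shESS2 arrays below both shC arrays. PSMB8, its partner subunit, differed by −1.78 and −0.91, and TAP2, a subunit of the peptide transporter, by −0.99 and −0.77. The 2 higher members were CALR and PDIA3, chaperones of the endoplasmic reticulum. PSMB8-AS1, a noncoding RNA transcribed across PSMB8 and PSMB9, was 2.05-fold and 2.31-fold lower. LAMP3, an interferon-inducible lysosomal membrane protein, had signals of 4180 and 638 in PC3 and of 480 and 199 in DU145 and was lower in each line. Its groups overlapped in signal and barely separated in scaled log2 level, which was 1.14 on PC3-shESS2 and 1.18 on DU145-shC.

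**Figure D3:**
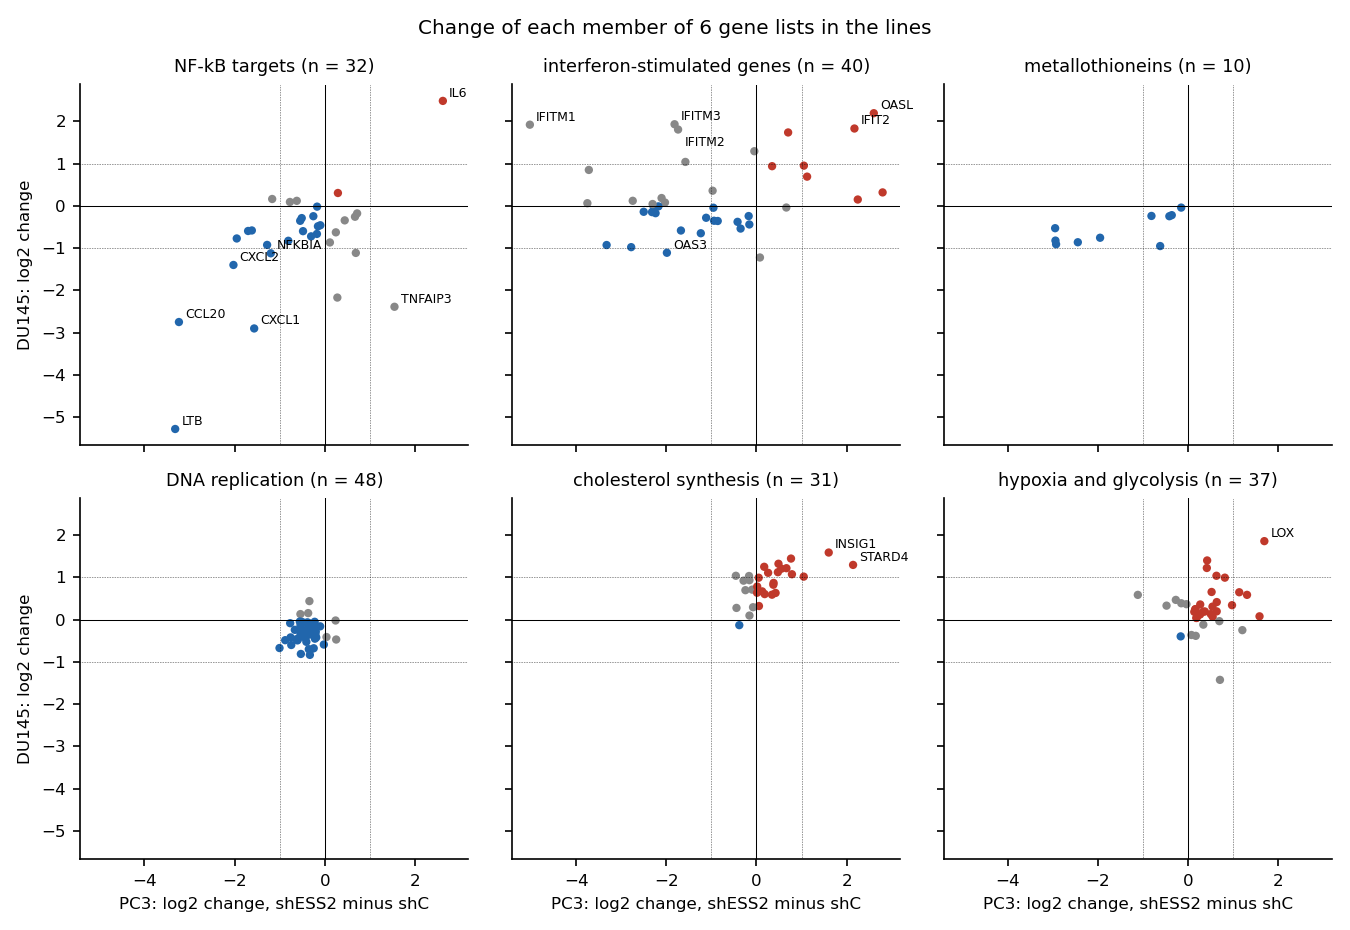
Each panel holds the measured members of a gene list, placed by their log2 change (shESS2 minus shC) in PC3 and in DU145; red points were higher in both lines, blue points lower in both and grey points opposite, and the members with the largest changes in both lines are named. NF-κB targets and DNA replication genes lay mainly at the lower left, cholesterol genes at the upper right, and interferon-stimulated genes spread along the PC3 axis.

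Genes of sterol supply were mostly higher in both lines. INSIG1 and STARD4 were among the members past 2-fold, and of 31 measured genes of cholesterol and fatty acid synthesis 21 were higher and 1 lower, beside 23.2% and 34.1% of all genes. INSIG1, which holds SREBP2 in the endoplasmic reticulum and is itself an SREBP2 target, had signals of 256 and 857 in PC3 and of 1180 and 3640 in DU145. The changes were nearly equal, 1.60 and 1.58, with overlapping groups, and the average change was 1.59 ± 0.17 (SE, limma, adjusted p = 0.649). STARD4, a carrier of cholesterol between membranes, had signals of 135 and 657 in PC3 and of 82.2 and 207 in DU145, with both shESS2 arrays above both shC arrays. The list was not shifted equally, as its median change was 0.17 in PC3 and 0.92 in DU145. HMGCS1, an early enzyme of the pathway, differed by 0.47 and 1.12, and SQLE, which oxidizes squalene, by 0.38 and 0.87, both named after their values were seen. PMVK was the only member lower in both lines, at −0.38 and −0.13.

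Genes of hypoxia and of the extracellular matrix included LOX and CEMIP. LOX, a lysyl oxidase that cross-links collagen and is induced by hypoxia, had signals of 52.7 and 187 in PC3 and of 21.9 and 80.9 in DU145. CEMIP, which takes part in the breakdown of hyaluronan, had signals of 23.8 and 173 in PC3 and of 50.5 and 262 in DU145. Both were dim genes, and for both the shESS2 arrays lay above both shC arrays. The folds were 3.22 and 3.62 for LOX and 6.59 and 5.05 for CEMIP, and the average change of CEMIP was 2.53 ± 0.20 (SE, limma, adjusted p = 0.461). Of 37 genes of the hypoxia response and glycolysis, 25 were higher and 1 lower in both lines, beside 23.2% and 34.1% of all genes, with median changes of 0.37 and 0.24. EGLN3, an oxygen sensor, differed by 0.81 and 0.99, and ANKRD37 by 1.13 and 0.65. NID2, a basement membrane protein, was 4.12-fold and 2.01-fold higher and had a signal of only 12.3 on the PC3-shC array.

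Among collagens and matrix proteins 11 were higher and 12 lower of 32, beside 23.2% and 34.1% of all genes. FBLN5, an elastic fibre protein, differed by 0.97 and 0.92, and COL13A1 by −1.15 and −0.51. Of 25 integrins and laminins 8 were higher, 1 lower and 16 opposite, LAMB1 being higher at 0.35 and 0.50. The 28 matrix proteases and inhibitors had 9 higher and 9 lower, with ADAM10 at 0.41 and 0.57 and SPINT1 at −0.28 and −1.70.

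Regulators of transcription and transport were also among the higher genes. KPNA7, an importin α that carries proteins into the nucleus and is normally found in oocytes and early embryos, had signals of 198 and 939 in PC3 and of 12.7 and 65.5 in DU145. It was higher by 4.30-fold and 5.02-fold, from a level near the background in DU145-shC, and its average change was 2.22 ± 0.18 (SE, limma, adjusted p = 0.461). CITED2, which competes with HIF1α for the coactivator p300, had signals of 977 and 2290 in PC3 and of 3620 and 12600 in DU145. BHLHE40, a repressor tied to the circadian clock and to hypoxia, had signals of 625 and 1440 in PC3 and of 301 and 802 in DU145, and its shESS2 arrays lay above both shC arrays. TP53INP1 and TP53INP2, related proteins with roles in p53 signalling and autophagy, were both higher, TP53INP1 by 2.56-fold and 2.77-fold and TP53INP2 by 2.56-fold and 2.29-fold. Across 24 p53 targets, 9 were higher and 5 lower in both lines, beside 23.2% and 34.1% of all genes, with CDKN1A at 1.29 and 0.62 and FAS at −0.47 and −0.76.

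MYB, HEY1 and VDR were the transcription factors among the lower genes. MYB, a factor of proliferating progenitor cells, had signals of 607 and 253 in PC3 and of 112 and 45.6 in DU145. HEY1, a target of Notch, had signals of 513 and 198 in PC3 and of 80.2 and 30.2 in DU145. The folds were alike between lines, 2.65 and 2.53 for MYB and 2.86 and 2.73 for HEY1, while the groups overlapped for both because PC3 was brighter. VDR, the vitamin D receptor, differed by −1.54 and −1.05. In the list of nuclear receptors 5 of 27 measured genes were higher and 7 lower in both lines, beside 23.2% and 34.1% of all genes, and 9 were higher and 4 lower with the authors' scaled values. PPARD was higher at 0.80 and 0.81, and PPARG lower at −0.44 and −0.30.

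Some signalling and surface proteins were among the higher genes. PAG1, an adaptor that recruits the kinase CSK to the membrane, had signals of 71.2 and 324 in PC3 and of 114 and 405 in DU145. TULP3, which brings receptors into the primary cilium, had signals of 472 and 1650 in PC3 and of 469 and 1640 in DU145, so that its values were alike between the lines. Both were higher on each shESS2 array than on each shC array, PAG1 with an average change of 1.92 ± 0.18 and TULP3 with 1.72 ± 0.17 (SE, limma, adjusted p = 0.601 and 0.615). CD24, a glycosylated surface protein, had signals of 14900 and 38800 in PC3 and of 7690 and 19100 in DU145, without overlap. EPHA4, an ephrin receptor, differed by 1.12 and 1.68, GPER1, a membrane receptor that responds to oestrogen, by 1.08 and 1.15, and DOCK11, an activator of CDC42, by 1.14 and 1.18. ENTPD3, which splits extracellular ATP, was 2.12-fold and 2.54-fold higher. The chloride channel family member CLIC3 was 4.47-fold and 2.05-fold higher, without overlap. TMEM45A, a membrane protein, was 2.34-fold and 2.69-fold higher.

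Genes of other roles on the higher side included SELENOP. This carrier of selenium had signals of 293 and 827 in PC3 and of 104 and 591 in DU145, with both shESS2 arrays above both shC arrays. TENT5A, which extends poly(A) tails, was 2.42-fold and 2.45-fold higher. KRT16P2, a keratin pseudogene, was 17.5-fold higher in PC3 and 2.80-fold in DU145, and its probe may also measure the near-identical KRT16 family, so its identity is uncertain.

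The other lower genes included structural and enzymatic proteins, noncoding RNAs and a pseudogene. LXN, an inhibitor of carboxypeptidases, had signals of 37300 and 3860 in PC3 and of 43.5 and 14.4 in DU145, and so was bright in PC3 and close to background in DU145-shESS2. PLS3, an actin-bundling protein of the plastin family, had signals of 5230 and 2290 in PC3 and of 2370 and 508 in DU145, and both shESS2 arrays lay below both shC arrays. CLDN11, a claudin of tight junctions, had signals of 260 and 129 in PC3 and of 1340 and 393 in DU145. It was lower in both lines with overlapping groups. ENC1, an actin-binding protein, was 2.05-fold and 2.19-fold lower, and HS3ST1, which sulphates heparan, 2.02-fold and 2.23-fold. ENC1 was dim in DU145, with signals of 25.8 and 12.1. NEURL3, an E3 ubiquitin ligase, was 3.58-fold and 2.26-fold lower. The noncoding RNA LOXL1-AS1 was 2.56-fold and 3.59-fold lower, while 1 further probe had smaller changes of −0.44 and −0.67. LOC100128966, without a known role, was 2.57-fold and 2.95-fold lower. CBX3P2, a pseudogene of CBX3 whose probe may also measure its parent, was 4.33-fold and 2.03-fold lower.

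Without overlap between arms were 12 of the 28 higher genes and 9 of the 25 lower genes. Over all genes tested, both shESS2 arrays were above both shC arrays for 708 (4.82%) and below for 1089 (7.42%). The ranking used the same contrast, so nothing is read from this difference.

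Several gene lists had small changes that ran the same way in most members. Of 48 DNA replication genes 42 were lower and 0 higher in both lines, beside 34.1% and 23.2% of all genes, with a median change of −0.40 in PC3 and −0.36 in DU145. MCM3, a subunit of the replicative helicase, had signals of 17600 and 9690 in PC3 and of 9890 and 6380 in DU145. E2F2, a factor that drives entry into S phase, differed by −0.74 and −0.60, and BRCA1, which acts in homologous repair, by −0.53 and −0.81. No member reached 2-fold in both lines. Under the scalings and filters tried, between 41 and 43 members were lower. Of 40 mitosis genes, 24 were lower and 1 higher, but their medians were −0.08 in PC3 and −0.58 in DU145. The PC3 median turned to 0.0096 with quantile normalization and 0.015 with the authors' scaled values, with 19 lower under each. PTTG1, which holds separase inactive, differed by −0.55 and −1.02, and CDK1 by −0.37 and −0.83. Core histones had 16 higher and 22 lower of 53, with H3C1 at −0.77 and −0.56 and H1-2 at 0.66 and 0.38. Histone genes are alike in sequence, and their probes may measure several copies.

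The E2F motif (TTTGGCGC or TTTCCCGC on either strand) was found in 14 of 153 promoters of genes more than 1.5-fold lower in both lines (9.15%), in 2 of 128 of those more than 1.5-fold higher (1.56%) and in 3.54% of all tested genes. It is shown for MCM3, the replication gene with the largest shared difference, with the match in capitals.
MCM3 (chr6:52284899-52284926, minus strand): ggatggtacgTTTCCCGCcaccgcgggg
Among genes past 2-fold, the E2F motif was in 1 of 20 lower (5.00%) and 0 of 20 higher genes. For the other motifs of the 5 searched, shares are given at the 2-fold limit. The interferon-stimulated response element (GAAANNGAAA) was in 10.0% of promoters both among lower and among higher genes past 2-fold, 2 genes each, against 2.82% of tested genes. The metal response element (TGCACNC or TGCGCNC) was in 40.0% of lower, 35.0% of higher and 37.7% of tested genes, and the sterol regulatory element (ATCACNCCAC) in 0 of 20 lower and 0 of 20 higher genes and in 0.122% of tested genes. OASL, IFIT2 and KPNA7 were not among the promoters searched.

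Metallothioneins were lower in both lines. These small proteins bind zinc and copper and are induced by metals through MTF1. All 10 measured genes of the list, which also holds MTF1 and the zinc exporter SLC30A1, were lower, beside 34.1% of all genes, with a median change of −1.38 in PC3 and −0.64 in DU145. With a filter on 2 arrays the medians were −0.82 and −0.53. With no filter on dim probes they were −0.62 and −0.42, and 13 of 14 genes were lower. With normexp 9 of 10 were lower. MT2A had signals of 143000 and 28900 in PC3 and of 92100 and 52200 in DU145. It was lower on both shESS2 arrays than on both shC arrays, but no member passed 2-fold in both lines. MT1B differed by −2.93 and −0.91 and MT1L by −2.94 and −0.82. Metallothionein genes are nearly identical in sequence, so their probes may measure the same RNAs and are not independent.

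Genes of protein and energy production were also lower by small amounts. Of 78 cytoplasmic ribosomal protein genes, 70 were lower and 0 higher in both lines, beside 34.1% and 23.2% of all genes, with medians of −0.17 and −0.19. This count depended on the scaling, as between 45 and 73 were lower under the alternatives. RPL3 differed by −0.32 and −0.27 and RPS25 by −0.47 and −0.26. Of 74 genes of oxidative phosphorylation 52 were lower and 1 higher, and between 36 and 52 were lower under the alternatives. CYC1, which encodes cytochrome c1, differed by −0.35 and −0.34, and COX7C was the higher member at 0.09 and 1.32. Among 35 ATF4 targets, which serve amino acid supply, 18 were lower and 1 higher, with medians of −0.16 and −0.51. STC2 differed by −0.97 and −1.5 and CEBPG by −0.69 and −0.67, while ATF3 was higher at 2.58 and 0.28.

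Chaperones of the endoplasmic reticulum and immediate-early factors ran the other way. Beside 23.2% higher and 34.1% lower over all genes, 17 of 23 chaperone genes were higher and 1 lower, with medians of 0.35 and 0.19. DNAJB9, a cochaperone of BiP, differed by 0.49 and 0.56, and PDIA6, a disulphide isomerase, by 0.47 and 0.51. The lower member was ERN1, the sensor kinase IRE1α, at −0.67 and −0.25. Of 26 immediate-early factors 14 were higher and 2 lower, with medians of 0.19 and 0.29. FOS differed by 0.83 and 1.5 and ZFP36, which degrades cytokine mRNAs, by 0.72 and 1.13. FOSL2 was lower at −0.82 and −0.08.

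ESS2 belongs to the splicing machinery. Of 42 genes of the spliceosome C complex 11 were higher, 13 lower and 18 opposite, beside 23.2%, 34.1% and 42.7% of all genes, and ESS2 was the only member past 1.5-fold in both lines. The balance turned with the scaling, to 15 higher and 6 lower with the authors' scaled values and 5 and 13 with median scaling. AQR, a helicase of the complex, differed by 0.30 and 0.50, and EFTUD2, a GTPase of the tri-snRNP, by −0.23 and −0.53. Of 46 SR and hnRNP regulators 6 were higher and 20 lower in both lines, and none passed 1.5-fold. With the authors' scaled values 11 were higher and 12 lower. SRPK2, a kinase of SR proteins, was at 0.46 and 0.68, and SRSF1 at −0.43 and −0.38.

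Developmental and junction genes were mixed except for the HOX genes. Of 24 HOX genes 15 were lower and 1 higher in both lines, beside 34.1% and 23.2% of all genes, with medians of −0.32 and −0.41, and between 13 and 15 of the 24 were lower under the scalings. With a filter on 2 arrays 17 of 30 were lower, and with no filter on dim probes 23 of 39. HOXB9 differed by −1.06 and −0.57, HOXA11 by −0.52 and −1.02, and HOXC13, the higher member, by 0.30 and 0.53. Of 29 cell junction genes 6 were higher and 7 lower. CLDN4 differed by 0.97 and 2.22, JUP, or plakoglobin, by 0.74 and 0.93, and GJB2, a connexin, by −0.74 and −1.5. EPCAM, an epithelial surface marker, differed by −0.38 and −2.61. The 11 measured keratins had 3 higher and 4 lower, and KRT80 was at −0.64 and −0.36. Among 13 genes of the mesenchymal state 4 were higher and 2 lower, with ZEB1 at 1.63 and 0.32.

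The signalling lists had members in both directions, beside 23.2% higher and 34.1% lower over all genes. Of 37 WNT pathway genes 4 were higher and 10 lower, or 8 and 7 with the authors' scaled values, with NKD2, a WNT antagonist, at 1.25 and 0.81 and AXIN2, a feedback target of β-catenin, at −1.48 and −0.75. Of 35 genes of the TGF-β and BMP pathway 8 were higher and 7 lower, with SMAD3 at −1.04 and −0.55. Of 23 YAP targets 6 were higher and 5 lower, with CCN2 at 0.80 and 0.51. Of 24 genes of MAPK feedback 7 were higher and 8 lower, with SPRY4 at −0.87 and −0.69 and ETV4 at −0.67 and −0.84. The EGF receptor family had 3 higher and 7 lower of 26, or 5 and 4 with the authors' scaled values, with FGFR2 at 0.54 and 0.66. The BCL2 family had 6 higher and 4 lower of 18, or 3 and 5 with median scaling, with BNIP3 at 1.30 and 0.58. The NRF2 targets had 4 higher and 6 lower of 27, with FTL at 0.44 and 0.35. The prostate lineage genes had 2 higher and 8 lower of 17, with SLC45A3 at −0.71 and −0.67 and STEAP1 at −1.53 and −0.65. Which direction had more members also depended on the scaling for TGF-β and BMP, MAPK feedback and NRF2 genes, as it did for cell junction genes, keratins, collagens and secreted cytokines, whose counts were nearly even.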

How the data were processed

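Total RNA of the 4 conditions, 0.1 µg per array, was labelled with Cy3 and hybridized to one-colour Agilent arrays. The authors deposited the intensity of each spot as Agilent Feature Extraction gave it, with background subtracted and arrays not scaled to each other, and a table of scaled intensity values whose columns equal the scanner values, up to rounding, times a constant for each array.

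Control and outlier spots were left out, log2 intensity was taken minus the 75th percentile of each array, and spots of a probe were averaged. The brightest probe stood for a gene and had to be well above background on all 4 arrays, which limits the set to genes measured in both arms. Symbols came from RefSeq accessions (GRCh38.p14) for 35080 of 58201 probes. The model in limma 3.58.1 (R 4.3.3) had a term for the line and a term for the knockdown, and p-values were adjusted by Benjamini-Hochberg. Nothing says that arrays came from separate cultures, so p-values measure only the spread between these samples, and the number of arrays limits precision. The fit was tested on simulated data. Further work was done in Python (3.11.15) with matplotlib 3.10.9 for plots, scipy 1.17.1, pandas 2.3.3 and numpy 2.4.6. Signals in the text are unscaled intensities, and folds are from scaled values.

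The comparison and the 34 gene lists were chosen with earlier results of these data known. Genes named were the first 15 in each direction whose probes all had the same sign, ESS2, GAPDH and ACTB, up to 3 members of each list and direction, the 5 largest opposite genes and 2 genes at each side of the 2-fold limit; further genes past 2-fold were added, and some items are not reported here. Alternatives were median scaling, quantile normalization, normexp, other filters, probe averaging, outliers kept, the authors' scaled values, other limma settings and either pair left out.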

Additional observations from a re-analysis of the deposited data

Results flagged for a closer look

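The 5 genes with the largest changes in opposite directions were singled out because the arrays of each line differed in the opposite way. IFITM1 differed by −5.02 in PC3 and 1.92 in DU145, IFITM3 by −1.82 and 1.93, and the pseudogene IFITM4P by −1.96 and 1.78; these encode or resemble interferon-induced membrane proteins that block virus entry, and their probes may share sequence. SELENBP1, a selenium-binding protein, differed by −1.87 and 1.91, and the pseudogene WFDC21P by −3.48 and 1.84. With 1 pair of arrays per line the difference between lines was not tested.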

How the results depend on the processing

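The count of genes called by limma was 0 in each direction under all 11 alternatives. Without the cell line block, 10 higher and 10 lower genes had an unadjusted p under 0.05. Genes past 2-fold in both lines, 28 higher, 25 lower and 29 opposite, became 71, 56 and 83 with a filter on 2 arrays and 132, 112 and 182 with no filter. With normexp 8 were lower and 13 opposite, and each probe on its own gave 44 higher. A 1.5-fold limit gave 168, 203 and 182. The share of higher genes among those past 2-fold in the same direction was 52.8%, against 70.4% with normexp, 66.1% with the authors' scaled values and 65.0% with changes centred on the median of all genes, an alternative chosen after seeing the data. Among all genes with the same direction it was 40.6%, against 52.0%, 50% and 30.9% with the authors' scaled values, centring and no filter. Of the 28 higher and 25 lower genes, 28 and 25 kept their direction under the 9 other scalings, filters and probe rules, and 17 and 8 passed 2-fold in normexp. Nothing is read from the kept direction, because the genes were chosen for changes past 2-fold and some settings reuse the same values. The share of genes with the same direction was 55.9% with median scaling, 56.5% with the filter on 2 arrays and 59.6% with no filter. The ESS2 change lay between −2.35 and −1.45 when either pair was left out and was −1.01 with normexp. The ACTB change lay between −0.039 and 0.15, the former without the PC3 pair. The labels carry no replicate numbers, and the cell line block already pairs the arrays of a line. Normexp adds an offset of 50, which draws dim values together, so sizes are least certain for dim genes such as ESS2.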

Other observations

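Some genes could be measured in an arm of both lines and, with any of their probes, on neither array of the other arm. Of the 25121 genes searched, 18 were such genes on the shC arrays only and 44 on the shESS2 arrays only. Each shESS2 array had more spots well above background than its shC array, 52.2 against 50.8% in PC3 and 52.6 against 51.9% in DU145. Nothing is read from the unequal counts. Just 3 and 1 of the genes differed by more than 2-fold in both lines when the dim value was raised to the lowest signal well above background. SAA2, an acute-phase protein whose sequence is close to that of SAA1, had signals of 3220 and 68.8 on the PC3-shC and DU145-shC arrays and was at least 394-fold lower in PC3 and at least 8.09-fold lower in DU145. TNF, the cytokine for which the TNF family is named, had signals of 22.8 and 34.6 with shC and was at least 2.33-fold and 4.37-fold lower. CNIH2, a receptor-trafficking protein, was at least 2.02-fold and 3.33-fold lower from signals of 16.5 and 26.4. CEACAM7, a surface adhesion molecule, was at least 3.12-fold and 2.11-fold higher, with signals of 30.8 and 18.8 with shESS2. These genes were chosen after their values were seen, and no test was made on them.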
